A study of Brassica oleracea var. italica with 48 samples.

Results

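Among the 60586 features measured in broccoli roots and leaves, 85 genes met a rule for a lower level in potassium-starved roots on day 6 only. The members were chosen from the measured values themselves. For each feature, d was the log2 of the mean level plus 1 in starved plants minus the same in control plants, so that a negative d means a lower level under starvation. A member had d of -1 or lower in roots of day 6, with the highest starved library below the lowest control library. It also had d within 0.5 of 0 in roots of days 1 and 3 and in leaves of day 6. Levels are in TPM, for which the reads of a feature are divided by its length and all values of a library are scaled to 1 common sum. A TPM value is thus a share of its library and not an amount per cell.

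The plants were wild-type (WT) broccoli, Brassica oleracea var. italica. Seedlings grew for 6 days on MS plates and for 7 days in hydroponics with 2 mM K2SO4, with 16 h light and 8 h dark, as all groups shared. Starved plants were then moved to a medium without potassium, and control plants are those labelled control. Roots and leaves were collected for RNA-seq on days 1, 3 and 6 after the move, in 12 groups with 4 libraries each (a, b, c and d), a total of 48. Nothing in the labels says whether the 4 libraries of a group came from separate plants or cultures, so the p-values below rest on the spread among these samples alone, and that spread may be technical.

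Potassium is the main inorganic cation of plant cells, where it serves osmotic pressure, membrane potential and the activity of many enzymes. Roots take it up from the medium through transporters and channels, known in Arabidopsis as HAK5 and AKT1, and load it into the xylem for the shoot. Mature tissues hold potassium in their vacuoles and can release it when the supply stops, and roots are the organ in direct contact with the depleted medium.

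The feature identifiers matched no gene name in the tables used here (0 of 60586), so members are given by identifier, with no name or role, and markers of tissues or cell types were not analysed here. The reads that the TPM values stand for could be recovered as whole numbers, 13819069 to 19735806 in root libraries and 18350975 to 20160248 in leaf libraries. Of the 48 libraries, 5 had a limma array weight under 0.2, meaning that they lay further from their groups than the others. In roots they were control day 1 a and starved day 3 d. In leaves they were starved day 1 d, control day 1 b and control day 3 a. Without those 5 libraries the rule found 83 genes, of which 66 were among the 85.

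On day 6 the members were lower in starved than in control roots by a median d of -1.18, and the range ran between -2.58 and -1.01. Much of the set lay close to the border, with 44 members above -1.2 and 11 at -1.5 or lower. The members' mean levels in roots of day 6 had a median of 3.68 TPM in starved plants and 10.17 TPM in control plants. The set spans a wide range of abundance, with means of 0.0306 to 948 TPM in starved roots and of 1.07 to 1975 TPM in control roots. In control roots 43 members reached 10 TPM, 10 reached 100 TPM, and 22 were under 4 TPM. In bulk RNA, fewer cells of a type and less RNA per cell cannot be told apart, and this holds for every level given here.

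The 4 starved and 4 control root libraries of day 6 were apart for the set as a whole. The summed level of the 85 members was 2003, 2297, 1937 and 2194 TPM in starved libraries a to d, against 5427, 4355, 4820 and 4962 TPM in control libraries a to d. The median member had a log2(TPM + 1) of 2.23, 2.41, 2.03 and 2.28 in the starved libraries, against 3.44, 3.34, 3.42 and 3.57 in the control libraries. The separation, like its spread over all 4 libraries of each group, follows from the rule and is no result. The log2 gap between the lowest control and the highest starved library ran between 0.0098 and 1.51 over the members, with a median of 0.63. The spread within a group was similar on both sides, since the SD was a median 25.4% of the mean in starved roots and 19.9% in control roots.

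**Figure D1:**
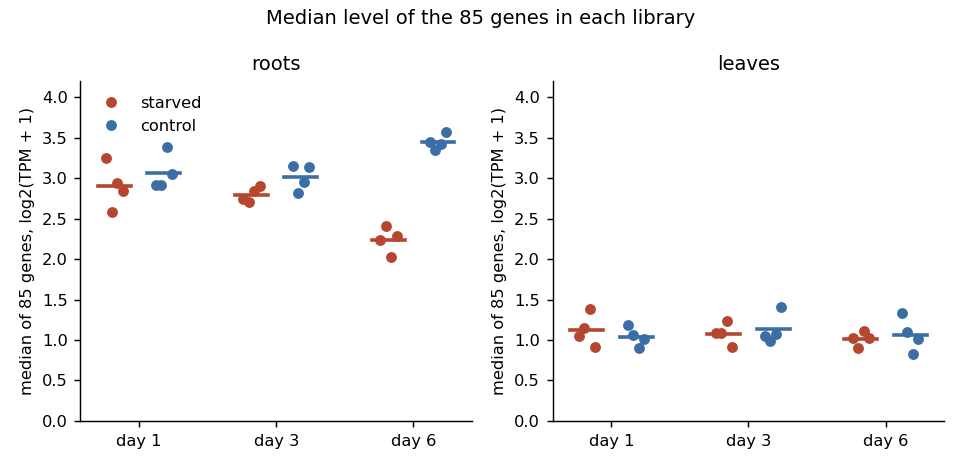
Median log2(TPM + 1) of the 85 genes in each root and leaf library by day (starved left of control, a dot per library, a bar at the group's mean). In roots of day 6 the starved dots lie between 2.03 and 2.41 and the control dots between 3.34 and 3.57, while the leaf groups overlap on every day.

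Since the rule used the day 6 root values, the model fit is given only beside its background. With limma on log2(TPM + 1) and Benjamini-Hochberg adjustment over all features, 81 of the 83 members that passed a filter on low values were called lower in starved roots of day 6 at an adjusted p under 0.05. Among all 29422 features tested, 6.6% were called lower. The filter asked for at least 1 TPM in at least 4 root libraries, and 2 members did not meet it. The depth behind the lowest values was small. The mean number of reads per library on day 6 had a median of 49.75 over the members in starved roots and 146 in control roots, and was under 10 for 11 members in starved roots and for 1 member in control roots.

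The gene with the most negative d was Bo3g071810, with a coding length of 306 bases. On day 6 it stood at 5.21, 10.95, 9.11 and 6.46 TPM in starved roots (mean 7.93 ± 2.59, SD, n = 4), against 53.6, 33.0, 63.8 and 59.8 TPM in control roots (52.6 ± 13.7). On day 3 it had 44.5, 25.5, 41.1 and 36.0 TPM in starved roots, against 47.3, 43.3, 52.6 and 48.8 TPM in control roots. Starved roots of day 1 were widely spread, with 106, 10.9, 37.6 and 22.5 TPM, against 34.45, 29.3, 58.8 and 44.9 TPM in control roots. The gene was therefore low in all 4 starved libraries on day 6. Starved libraries b and d of day 1 were also below every control library of their day, as were starved b, c and d of day 3. In leaves it did not exceed 0.145 TPM in any library.

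Bo9g185070 (coding length 1827 bases) had a d of -1.98 on day 6. Its levels were 13.5, 15.0, 27.5 and 9.85 TPM in starved roots and 60.13, 30.5, 57.5 and 123 TPM in control roots. The closest libraries of the groups were starved c and control b, and control d stood above the other controls. On day 3 it had 63.1, 35.7, 44.6 and 46.7 TPM in starved roots, against 61.4, 61.6, 64.21 and 10.5 TPM in control roots, where library d was far below the rest. Its small d of -0.06 on that day thus averages over 1 low control library.

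Bo3g156880 (coding length 450 bases) had a d of -1.82 on day 6, with 4.83, 6.91, 4.597 and 4.73 TPM in starved roots against 21.1, 17.8, 22.2 and 23.2 TPM in control roots. Its groups were narrow and well apart on that day. On day 1 it had 30.17, 4.24, 7.97 and 6.92 TPM in starved roots, against 18.2, 15.8, 18.6 and 17.4 TPM in control roots. On day 1, then, 3 of the 4 starved libraries were already below every control library, and only library a brought d to -0.47, inside the bound. Bo1g056950 (coding length 1290 bases) had a d of -1.77 on day 6, with 4.83, 4.34, 3.56 and 7.74 TPM in starved roots against 19.0, 24.8, 13.2 and 22.6 TPM in control roots.

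**Figure D2:**
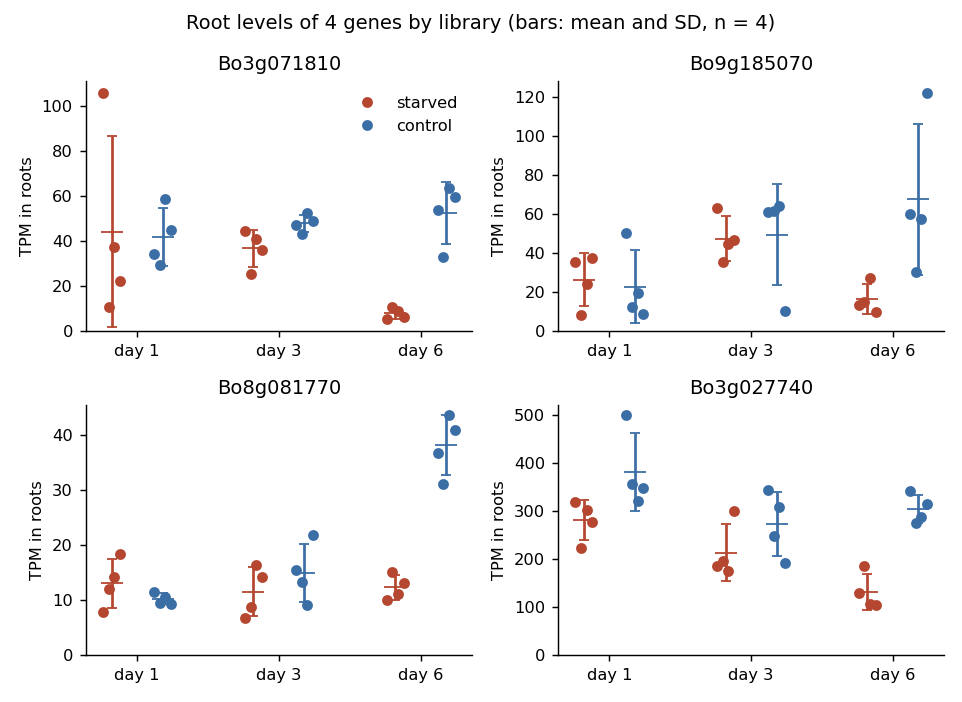
Root levels in TPM of 4 of the 85 genes on days 1, 3 and 6 (starved left of control, a dot per library, bars for the mean and SD of 4 libraries). Bo3g071810 and Bo9g185070 have the most negative d of day 6, Bo8g081770 has the largest increase in control roots, and Bo3g027740 is the most abundant member in leaves.

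The label of the set says that the lowering was late, and the day 1 and day 3 values bear on that only within the bound the rule set. The d of roots had a median of -0.19 on day 1 and of -0.31 on day 3. It was below 0 for 59 members on day 1, for 74 on day 3 and for 51 on both days, while among the features tested in roots 37.5% were below 0 on day 1, 54.1% on day 3 and 21.3% on both. The members' d was between -0.5 and -0.4 for 17 members on day 1 and for 22 on day 3. For 17 members the d of day 6 lay within 0.75 of the d of day 3. The set is therefore not at 0 on the earlier days, and for some members the bound separates a smaller from a larger difference of the same sign. At levels near 0 the 1 added before the log2 also keeps d small. Bo7g098470 thus met the bound with means of 0.0484 TPM in starved and 0.350 TPM in control roots of day 1. On day 3 its means were 0.0983 and 0.328 TPM. How many members do so was not counted.

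The day 1 values also depended on single libraries, and starved libraries a and b lay in opposite directions. Starved root library a of day 1 held the highest of the 4 starved values for 57 of the 85 members. Its median deviation from the group's mean was 0.24 on the log2 scale. Library b held the lowest value for 52 members, with a median deviation of -0.29. Shares over all features are not given here. Without library a the median d of day 1 was -0.34, 70 members were below 0, and 14 members had a d of -0.5 or lower and 1 a d of 0.5 or higher. The remaining 70 members still met every condition. Bo3g071810, Bo3g156880 and Bo1g056950 left the set, with d values of day 1 at -0.80, -1.33 and -0.64 without that library, while Bo9g185070 stayed with 0.03. Bo9g185070 in turn left the set without control root library a of day 1, with a d of day 1 of 0.90, and Bo1g056950 did so as well, with -0.60. Without that control library 76 of the 85 members met the rule. Each of the 4 members with the most negative d of day 6 thus left the set when 1 or another library of day 1 was omitted.

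**Figure D3:**
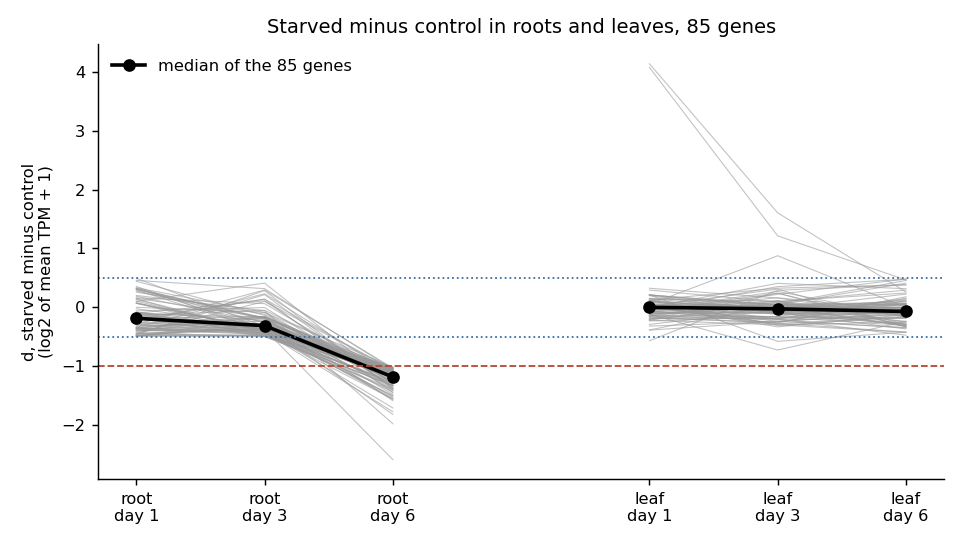
Starved minus control difference d for the 85 genes in roots and leaves of days 1, 3 and 6 (a grey line per gene, a black line for the median, dotted lines at the bound of 0.5 and a dashed line at -1). The median runs at -0.19, -0.31 and -1.18 in roots, and 2 lines in leaves of day 1 reach about 4.

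The threshold of -1 cuts through a dense range of values. Just inside it, Bo9g006090 (d -1.01) had 4.30, 4.06, 3.56 and 3.87 TPM in starved roots and 9.46, 9.76, 8.19 and 8.55 TPM in control roots of day 6. Bo5g043450 (d -1.01), also just inside, had 0, 0, 0.0783 and 0.0441 TPM in starved roots and 1.00, 1.47, 1.04 and 0.771 TPM in control roots. On day 1 its mean was already 0 TPM in starved roots against 0.283 TPM in control roots. On day 3 it was 0.0242 TPM against 0.376 TPM. The 1 added before the log2 kept its d at -0.36 and -0.43 on those days. Just outside the threshold and meeting every other condition, Bo3g049920 (d -0.9997) had 8.40, 5.65, 7.78 and 7.26 TPM in starved roots and 10.16, 14.29, 11.1 and 26.7 TPM in control roots. Bo1g078280 (d -0.9973) had 13.0, 17.9, 13.6 and 13.0 TPM in starved roots and 36.7, 25.1, 33.0 and 24.1 TPM in control roots. On the log2(TPM + 1) scale, the lowest control and highest starved library stood further apart in both genes inside than in both genes outside. In TPM this did not hold, since Bo1g078280 had the widest gap, 17.9 against 24.1 TPM. A threshold of -0.8 gave 173 genes and a threshold of -1.5 gave 11.

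A difference on day 6 can come from a lower level in starved roots, a higher level in control roots, or both, and the members divide on this. The change with time was taken as the log2 level on day 6 minus that of days 1 and 3 averaged. The rule fixes the 2 treatments relative to each other, so these values are a description. The change had a median of -0.48 in starved roots (-2.21 to 0.26) and of 0.55 in control roots (-0.74 to 1.55). Levels were lower on day 6 for 77 members in starved roots, as for 67.5% of the features tested, and higher on day 6 for 76 members in control roots, as for 31.7% of the features tested. Over all features tested the median change was -0.12 in either treatment.

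In 38 members the control level was higher on day 6 by at least 0.5 while the starved level was not lower by as much, and their median change was -0.17 in starved roots and 0.76 in control roots. In 29 members the starved level was lower by at least 0.5 while the control level was not higher by as much, and their median change was -0.96 in starved roots and 0.15 in control roots. A further 10 members showed both and 8 showed neither. Among all features tested, 2.96% had only the control increase, 7.64% only the starved decrease, 0.316% both and 89.1% neither. A starved decrease of that size, with or without a control increase, was seen in 39 members and in 7.95% of all features tested. A control increase, with or without a starved decrease, was seen in 48 members and in 3.28% of all features tested. The control change was the larger of the 2 in 43 of the 85 members, against 30.8% of the features tested. By library, the 4 starved libraries of day 6 lay below all 8 earlier starved libraries in 19 members, against 2.96% of the features tested. The 4 control libraries of day 6 lay above all 8 earlier control libraries in 32 members, against 1.86% of the features tested. Both held in 4 members (4.71%), against 0.0272% of the features tested.

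**Figure D4:**
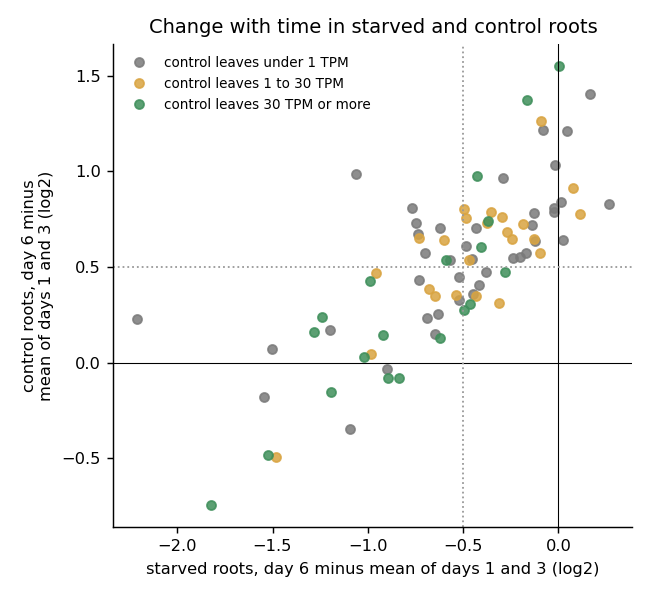
Change between the mean of days 1 and 3 and day 6 for the 85 genes, in log2 units, in starved roots (horizontal axis) and control roots (vertical axis), coloured by the level in control leaves, with dotted lines at -0.5 and 0.5. The genes lie along a band whose upper right holds control increases with little starved change, such as Bo8g081770 at 0.01 and 1.55, and whose lower left holds starved decreases, such as Bo3g071810 at -2.21 and 0.23.

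The largest increase in control roots was that of Bo8g081770 (coding length 1077 bases), a gene chosen here after its values were seen. On day 1 it had 7.77, 11.9, 14.07 and 18.4 TPM in starved roots, against 11.5, 9.51, 10.5 and 9.27 TPM in control roots. On day 3 it had 6.71, 8.79, 16.3 and 14.08 TPM in starved roots, against 15.4, 13.3, 9.10 and 21.8 TPM in control roots. On day 6 it had 9.95, 15.1, 11.1 and 13.0 TPM in starved roots, against 36.7, 31.1, 43.6 and 40.9 TPM in control roots. The starved libraries of the 3 days overlapped, and beside the day 6 difference of -1.56 stood a control level above that of every earlier control library.

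The second largest control increase was that of Bo3g058720, also chosen after its values were seen, at a far lower level. On day 6 it had 0.836, 0.622, 0.779 and 0.658 TPM in starved roots, against 6.15, 1.29, 4.21 and 1.06 TPM in control roots, where 2 of the 4 libraries were close to the starved ones. At the other end, the starved decreases of Bo3g071810 (-2.21) and Bo8g007190 (-1.82) were the largest. Bo8g007190 changed by -0.74 in control roots as well, the lowest value of any member, so that its level was lower on day 6 in both treatments.

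For comparison, the reverse rule (d of 1 or higher on day 6 without overlap, with the same bounds) found 180 genes. Their median change with time was 0.63 in starved roots and -0.53 in control roots. The reverse rule, like that of the members, itself sets the changes of the 2 treatments apart, so their divergence is no result. A set of 90 genes lower in starved roots by the same threshold on all 3 days, with leaves of day 6 within 0.5, had median changes of 0.34 in starved roots and 0.47 in control roots. The rule of that set asks for a difference on every day and does not set the changes apart. No test of these differences between sets was run, since each set was chosen by these same libraries.

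The most abundant member in roots was Bo9g022550 (coding length 1125 bases). On day 1 it had 1551, 1311, 1482 and 1373 TPM in starved roots, against 2526, 1741, 1760 and 1711 TPM in control roots. On day 3 it had 1395, 872, 1156 and 1863 TPM in starved roots, against 1158, 1124, 1247 and 1407 TPM in control roots. On day 6 it had 946, 934, 806 and 1104 TPM in starved roots, against 2058, 1940, 1899 and 2004 TPM in control roots. The control level was thus lower on day 3 than on days 1 and 6, and on day 1 all 4 starved libraries were below all 4 control libraries. Its mean level in control leaves of days 1 and 3 was 28.0 TPM. Bo7g088610 (coding length 264 bases) had a d of -1.44 on day 6, with 83.0, 121, 135 and 112 TPM in starved roots and 432, 153, 307 and 340 TPM in control roots. Its control library b came close to the starved values.

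The rule did not use the leaves of days 1 and 3, and there the members could be tested. In leaves of day 1, 48 members passed the filter, and limma called 0 of them at an adjusted p under 0.05, with 4 (8.33%) at an unadjusted p under 0.05, against 2.50% of all features. At the adjusted threshold the background is 0% of the 25098 features tested, and voom on the recovered reads called 0 members as well. In leaves of day 3 limma called 0 of 48 members, against 0.0558% of all features, and voom called 0. At an unadjusted p under 0.05 stood 2 members (4.17%), against 4.59% of all features. The letters a to d were taken to pair the leaf libraries of day 3, and with the letter as a block limma again called 0 of 48. With the block and only the leaf libraries of day 3 in the fit it called 1 of 42, Bo3g176080, higher in starved leaves by 1.17 (limma, adjusted p = 0.0429). That fit called 2.38% of the members tested and 1.12% of all 23367 features. Over all 85 members d in leaves had a median of 0 on day 1 and of -0.03 on day 3. With so few called features in these leaves, the fits do not show that the members' leaf levels were equal.

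The widest leaf values belonged to a pair of members, Bo3g176080 (coding length 564 bases) and Bo10610s010 (525 bases), singled out after their values were seen. In leaves of day 1 Bo3g176080 had 17.1, 57.3, 80.0 and 2.82 TPM in starved plants, against 2.81, 0.722, 0.712 and 0.944 TPM in control plants. Bo10610s010 had 13.8, 54.9, 52.2 and 10.22 TPM in starved leaves, against 1.42, 1.16, 0.680 and 0.760 TPM in control leaves. Every starved library was above every control library for both genes, but for Bo3g176080 only by 2.82 TPM in starved d against 2.81 TPM in control a. The share of all features without overlap in these leaves is not given here. The limma log2 differences were 3.47 (SE 1.19, adjusted p = 0.986) and 3.74 (SE 1.08, adjusted p = 0.986), with unadjusted p-values of 0.00814 and 0.00214, so neither passed.

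Both genes were high or low in the same libraries, and whether they share reads was not tested. In leaves of day 6 Bo3g176080 had 1.204, 34.36, 2.07 and 76.1 TPM in starved plants, against 62.2, 25.9, 0.381 and 5.71 TPM in control plants. Bo10610s010 had 1.12, 30.8, 1.57 and 68.8 TPM in starved leaves, against 45.8, 22.5, 0.491 and 4.18 TPM in control leaves. Both genes were high in starved b and d and in control a and b, which makes their small d of that day a balance of scattered libraries. Their root levels were low. In roots of day 6 Bo3g176080 had 0.0856, 0.255, 0.0797 and 0.0899 TPM in starved plants and 2.12, 1.59, 1.26 and 2.09 TPM in control plants.

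Control plants on their own were compared between days. These libraries are not independent of the rule, which bounded d with the control roots of days 1 and 3 and with the control leaves of day 6, so the counts are a description beside the background. Between days 3 and 1 in control roots, limma called 0 of 83 members, against 1.46% of the 29422 features tested. At an unadjusted p under 0.05 stood 12 members (14.5%), against 15.5% of all features. The median log2 difference, day 3 minus day 1, was 0.03 over the members and 0.08 over all features. The letters were taken to pair these libraries, and with the letter as a block limma called 2 members lower on day 3 (2.41%, against 1.63% of all features called). With the block and only the 2 groups in the fit it called 0 of 77 members and 0 of 27970 features. The 2 were Bo6g103520 (-0.45, adjusted p = 0.0376) and Bo9g022550 (-0.63, adjusted p = 0.0418). In control roots Bo6g103520 had 72.7, 63.5, 86.0 and 90.3 TPM on day 3 against 107, 98.3, 108 and 110 TPM on day 1. Voom on the recovered reads called 1, Bo6g103520 (-0.51, adjusted p = 0.0388). With limma array weights, which count the library control day 1 a for less, 16 were called (19.3%), 6 higher and 10 lower on day 3, beside 17.7% of all features called in that fit.

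In control leaves between days 6 and 1, limma called 17 of 48 members (35.4%), 11 higher and 6 lower on day 6, against 16.6% of the 25098 features tested. After rescaling it called 15 (31.2%), against 21.2%. At an unadjusted p under 0.05 stood 50% of the members, against 29.1% of all features. After rescaling these shares were close, at 35.4% and 33.8%. The median log2 difference, day 6 minus day 1, was 0.15 over the members and 0.10 over all features. The largest called increases were those of Bo5g005490 (1.37, SE 0.29, limma adjusted p = 0.00227) and Bo9g183080 (1.099, SE 0.29, adjusted p = 0.0108). Bo9g183080 had 12.7, 17.8, 13.4 and 15.3 TPM in control leaves of day 6 and 8.08, 4.68, 6.13 and 6.85 TPM on day 1, without overlap.

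The largest called decreases were those of Bo9g006380 (-2.02, SE 0.20, limma adjusted p = 9.26e-07) and Bo7g113100 (-1.53, SE 0.29, adjusted p = 0.000831). Bo9g006380 had 10.35, 9.06, 13.2 and 10.7 TPM in control leaves of day 6, against 43.6, 50.6, 40.0 and 54.0 TPM on day 1. In control roots the same gene had 30.34, 23.4, 30.5 and 25.9 TPM on day 6, against 27.9, 23.8, 39.1 and 33.9 TPM on day 1. In starved roots it had 15.7, 9.93, 16.1 and 9.76 TPM on day 6, against 27.8, 18.5, 25.1 and 21.7 TPM on day 1. Bo8g081770, the gene of the largest control root increase, was lower, at -0.68, in control leaves over the same days (limma adjusted p = 0.0165). Without control leaf library a of day 6 the count of called members was 9 of 48, beside 2576 of all 24963 features tested in that fit.

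By level in the 2 organs, the members were of unlike kinds. Between roots and leaves of day 1 controls, limma called 77 of 84 members (91.7%), 53 higher and 24 lower in roots, against 83.1% of the 31520 features tested. By direction 63.1% of the members were higher and 28.6% lower, against 65.6% and 17.5% of all features. The rule asks for a level in roots and its leaf bound is met by any gene silent in leaves, and the control roots of day 1 entered the rule, so these counts are a description. Rescaling the libraries moved the median of all features in this contrast by -0.76 on the log2 scale and gave 47 members higher (56.0%) and 28 lower (33.3%), against 42.4% and 32.5% of all features. On the deposited scale the median log2 difference, root minus leaf, was 1.00 over the members and 0.90 over all features. Examples are Bo9g022550, higher in roots by 6.47 (SE 0.16, limma adjusted p = 9.66e-33), and Bo8g007190, lower in roots at -7.66 (SE 0.24, adjusted p = 1.51e-28).

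In control leaves of days 1 and 3, 41 members averaged under 1 TPM (48.2%, against 26.9% of the features tested in roots), and 2 were at 0 in all leaf libraries. A further 24 averaged 1 to 30 TPM and 20 averaged 30 TPM or more (23.5%, against 12.1%). Among the 180 genes of the reverse rule 2.22% reached 30 TPM in leaves, and among the 90 genes lower on all 3 days 3.33% did. The leaf level exceeded the root level in 29 members (34.12%, against 17.3% of the features tested). The median d of roots of day 6 was -1.203, -1.21 and -1.15 in the 3 leaf classes, low to high. The time course was less alike. In the class of 30 TPM or more the median change was -0.73 in starved roots and 0.26 in control roots. In the class under 1 TPM it was -0.45 in starved roots and 0.58 in control roots. No test was run on these classes.

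**Figure D5:**
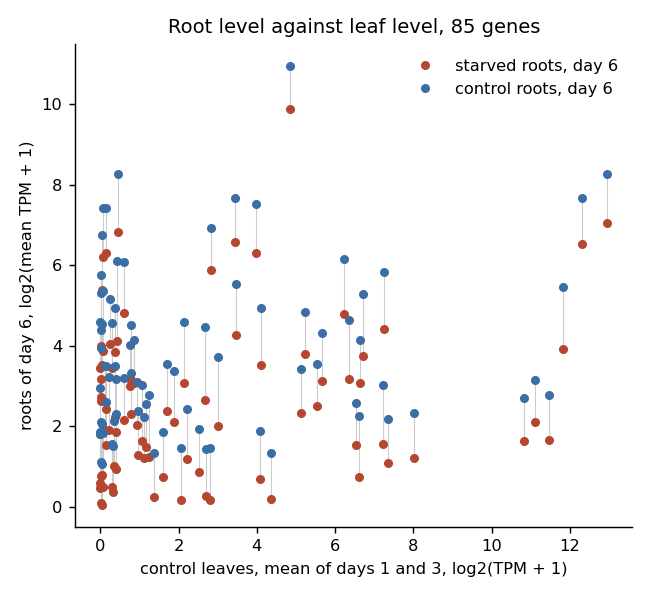
Root level of day 6, log2(mean TPM + 1), against the level in control leaves of days 1 and 3 for the 85 genes, with starved and control roots joined by a line per gene. The 41 genes under 1 TPM in leaves crowd at the left, and 6 genes of 1000 TPM or more in leaves stand at the right.

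The group at the right of the plot of root against leaf level consists of 6 members with 1000 TPM or more in control leaves (7.06% of the members, against 0.381% of the features tested). The most abundant was Bo3g027740, at a mean of 7938 TPM in control leaves of days 1 and 3. In roots of day 6 it had 129, 185, 107 and 104 TPM in starved plants, against 341, 276, 288 and 314 TPM in control plants. Bo4g027240, at 5079 TPM in those leaves, had 63.4, 152, 80.7 and 65.0 TPM in starved roots, against 237, 163, 261 and 153 TPM in control roots. Bo04728s010 had 11.4, 21.5, 13.2 and 9.94 TPM in starved roots, against 46.2, 38.4, 56.2 and 31.6 TPM in control roots. Without control library d these 3 stayed past the threshold, with d of day 6 at -1.195, -1.28 and -1.68.

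The other 3 did not. Bo8g007190 had 3.32, 2.38, 1.202 and 1.61 TPM in starved roots and 3.39, 4.24, 3.94 and 11.8 TPM in control roots of day 6. Bo7g064820 had 4.57, 4.48, 1.82 and 2.28 TPM in starved roots and 6.28, 5.64, 7.73 and 11.4 TPM in control roots. Bo4g086780 had 2.48, 2.52, 1.76 and 1.62 TPM in starved roots and 4.19, 2.74, 4.18 and 10.7 TPM in control roots. In all 3 the control library d was the highest, and without it their d was -0.64, -0.82 and -0.60, outside the threshold. Of the 85 members, 73 met the rule without that library.

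The level of other leaf-abundant RNA in roots is given beside these values. Besides the 6 members, 103 features had 1000 TPM or more in control leaves and a root level under 1/20 of that, and they made up 35.3% to 48.3% of leaf libraries and 0.0424% to 0.285% of root libraries. Their summed level in roots of day 6 was 756, 750, 424 and 755 TPM in starved plants, against 608, 671, 675 and 1097 TPM in control plants, so the groups overlapped. Control d was the highest, and starved a, b and d were above control a, b and c. Their median d in roots was -0.11, 0.43 and -0.24 on days 1, 3 and 6, and 11 of the 103 had a d of -1 or lower on day 6. The 6 members together had 214, 368, 206 and 184 TPM in starved roots and 638, 490, 621 and 533 TPM in control roots. Their lack of overlap follows from the rule and is no result beside the 103 features, which were not chosen by it.

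As a share of the leaf level of the same day, the 103 features stood in roots at a median of 0.0832% in starved plants and 0.125% in control plants. Bo8g007190 stood at 0.0762% in starved and 0.195% in control plants, Bo7g064820 at 0.132% in starved and 0.325% in control plants, and Bo4g086780 at 0.128% in starved and 0.311% in control plants. Bo3g027740 stood higher, at 1.68% in starved and 3.70% in control plants. The 103 ranged up to 3.42% in starved and 3.17% in control plants. Control d was thus the highest library both for the 103 features and for the 3 low genes, and the part of leaf-abundant RNA in the values of those 3 was not tested.

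The members had a median coding length of 789 bases (120 to 3051), against 1035 bases for the features tested in roots, 924 bases for the reverse set and 957 bases for the set lower on all 3 days. The shorter 42 members had a median d of day 6 of -1.23 and the other 43 of -1.15. Root libraries of day 6 differed in how a gene's deviation from its mean over the root libraries followed length, as a rank correlation across the features tested within each library, described with no test since genes are not independent replicates. It was -0.240, -0.140, -0.225 and 0.218 in starved libraries a to d, and -0.323, 0.266, -0.370 and 0.150 in control libraries a to d. Both signs occur in both groups. The part of length in the members' values was not tested.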

How the data were processed

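Library preparation used column-purified, DNase-treated RNA and DNBseq sequencing, per the labels' protocols. Tools listed in the submitters' processing notes are cutadapt 4.1, FastQC 0.11.9, STAR 2.7.10a and DESeq2. For the build, annotation and counter: not given in the sources used here. Deposited was a table of TPM, made by the authors, for 60586 features in 48 libraries, each summing to 1000000; 12686 features were at 0 throughout. Whole reads were recovered from the TPM steps by a search for steps that give whole numbers. For features above 0 in at least 2 libraries, 100% of the values above 0 lay within 0.05 reads of a whole number. The search itself asked for this closeness. The common scale of the lengths was chosen as the one at which most were multiples of 3. At that scale 99.8% of lengths for Bo identifiers were multiples of 3, which is therefore no independent check. They are called coding lengths here on that assumption and were not compared with an annotation.

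The members and all lists were chosen with earlier results of these data known. Tests used limma 3.58.1 (R 4.3.3, lmFit and eBayes with trend) on log2(TPM + 1), a filter of 1 TPM or more in 4 or more libraries, a term per group, all libraries of the tissue (both tissues for root against leaf), Benjamini-Hochberg adjustment over all features and a threshold of 0.05; 6 comparisons were made. Fold changes on this scale understate changes of low genes. The scripts were tested on simulated data. Other steps used Python 3.11.15, numpy 2.4.6 and pandas 2.3.3.

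Named genes were the 4 most negative in d, the 4 highest in control roots of day 6 and in control leaves, the 2 on each side of the threshold, and the 2 largest called rises and falls between days in controls; others are said to be chosen after their values were seen. The letters a to d were taken to pair libraries where the correlation of deviations was over 0.1 for every letter, as in leaves of day 3 (0.226 to 0.714) and control roots of days 3 and 1 (0.103 to 0.302). That check comes from the data and not from the labels. In leaves of day 3 only 2 of the 4 starved libraries correlated best with the control library of their own letter, so the pairing is not established. Alternatives were other pseudocounts, filters, scalings, weights, thresholds and bounds, the block, and leaving out libraries; voom on recovered reads, leaving out 5 low-weight libraries and the block within the contrast's groups were added after seeing the data.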

Additional observations from a re-analysis of the deposited data

Results flagged for a closer look

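In 80 groups of 4 libraries of the named genes, 10 held a library far from the other 3 (a gap past Dixon's 95% critical value); chance sets apart about 1 in 20 groups. Bo8g007190 had 11.8 TPM in control root library d of day 6, against 3.39 to 4.24 TPM in the others. It also had 19.8 TPM in starved root library d of day 3, against 6.29 to 7.18 TPM, and 6.05 TPM in control root library b of day 3, against 9.01 to 9.22 TPM. Bo3g156880 had 30.17 TPM in starved root library a of day 1, against 4.24 to 7.97 TPM, and 6.91 TPM in starved root library b of day 6, against 4.597 to 4.83 TPM. Bo9g185070 had 10.5 TPM in control root library d of day 3, against 61.4 to 64.21 TPM in the others.

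Among the genes of low level, Bo3g058720 had 0.221 TPM in starved root library d of day 1, against 0.684 to 0.708 TPM. Bo3g176080 had 0.255 TPM in starved root library b of day 6, against 0.0797 to 0.0899 TPM, and 2.81 TPM in control leaf library a of day 1, against 0.712 to 0.944 TPM. Bo5g005490 had 11.8 TPM in control leaf library a of day 6, against 2.35 to 3.88 TPM in the others.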

How the results depend on the processing

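The rule gave 7 genes with a bound of 0.25, 173 with a threshold of -0.8 and 11 with a threshold of -1.5. With a pseudocount of 0.1 it gave 118, of which 42 were among the 85, and with rescaled libraries 76, of which 58 were. Leaving out 1 library gave 72 to 110 genes, and 16 members met the rule under each of the 32 omissions. With the replicate block the calls in roots of day 6 were 83 lower (100% of members tested, against 6.71% of all features). In leaves they were 0 on day 1 (against 0%) and 0 on day 3 (against 0.00797%). Between control roots of days 3 and 1 they were 2 (2.41%, against 1.63%). Between control leaves of days 6 and 1 they were 15 (31.25%, against 14.0%), and between roots and leaves 77 (91.7%, against 83.0%). In control roots array weights gave 16 (19.3% of members tested, against 17.7% of all features) and voom 1 (1.205%, against 1.77%). The block within the contrast's groups gave 0 in control roots and, in leaves of day 3, 1 (2.38%, against 1.12%). Leaving out 1 library gave 9 to 18 calls of 48 members between control leaves, beside 2576 of 24963 to 4581 of 25066 features called. The cause of these shifts was not tested. For 10 genes between roots and leaves and 4 between control leaves of days 6 and 1, named by the rule in the methods, direction and call held under all 224 alternatives run. The single-gene calls between control roots and in leaves of day 3 held under some settings only, and Bo8g081770 in leaves was not among those 14 results. Low counts limit the precision of the 11 members under 10 reads in starved roots.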
